A study of Mus musculus with 9 samples.

Results

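Collagen chain genes were examined in 3 lines of mouse embryonic fibroblasts (MEFs) that differ in Oga, the gene of O-GlcNAcase, the enzyme that removes O-linked N-acetylglucosamine from proteins. Members were taken by symbol: all probe sets annotated to 1 gene with a symbol of the form Col, a number, a and a number. This gave 42 of 18193 genes with a symbol, read by 82 of the 34945 probe sets that carried 1 symbol, among 45037 non-control probe sets. A probe set is the group of oligonucleotides on an Affymetrix array that reads 1 transcript region. After probe sets with low values were left out (a mean log2 value under 6.22), 54 probe sets of 32 collagen genes remained among 12962 tested genes. The other 10 genes had all their probe sets below that value, and 2 further collagen genes, Col6a6 and Col28a1, were not analysed here. Of the tested genes 10 encode fibrillar chains, 7 network-forming chains, 7 FACIT chains (fibril-associated collagens with interrupted triple helices), and 8 the beaded-filament type VI chains and the remaining types.

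The WT line carried 2 working copies of Oga, the Het line 1 and the KO line 0. All 3 came from female embryos at E12.5, in a cross that started from floxed Oga males on C57Bl/6 and females with an MMTV-Cre transgene on a B6129 background. Their heterozygous offspring were intercrossed, so all 3 lines share this mixed ancestry. MMTV-Cre places the recombinase under a mammary tumour virus promoter, and here the deleted allele was passed on through the germ line to whole embryos. The cells were grown in DMEM, and RNA of each line was run on 3 arrays that the study calls technical replicates. Each genotype is 1 line code, so p-values measure the spread between arrays, and genotype and line cannot be told apart. The 3 comparisons share arrays: KO and Het were both set against the same WT arrays.

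Collagens are proteins of 3 chains wound into a triple helix, built either from 3 copies of 1 chain or from products of different genes. Fibroblasts secrete mostly the fibrillar types, which assemble into the cross-linked fibrils that give connective tissue its strength. Network types form sheets in basement membranes, FACIT chains coat the surface of fibrils, and type VI forms beaded filaments around cells. In cartilage, type IX is the FACIT on fibrils of type II.

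In the KO line 4 of the 32 tested collagen genes fell against WT, and 0 rose. A gene was called where its limma Benjamini-Hochberg adjusted p, over all 12962 genes, was below 0.05 and its difference at least 2-fold. Of all genes tested 3.56% were called (2.58% fell and 0.988% rose). The genes were Col9a1 and Col9a3, chains of the cartilage FACIT type IX, Col8a2, a short-chain network collagen, and Col6a3, the largest chain of the type VI filament. The same 4 genes fell against the Het line, where 2% of all genes tested were called (1.37% fell and 0.625% rose). Against WT, the Het line had 0 called collagen genes, beside 0.255% of all genes (0.201% fell and 0.054% rose). In that comparison 19 of the 32 had an unadjusted limma p below 0.05 (44.3% of all genes) and 17 passed the adjusted p alone, of which 12 were higher and 5 lower, where 34.4% of all genes passed it.

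Most of the family differed by far less than 2-fold. The adjusted p alone was passed by 21 of the 32 collagen genes between KO and WT, 8 higher and 13 lower, where 53.1% of all genes passed it, and by 24 between KO and Het, 5 higher and 19 lower (52.3% of all genes). The median log2 difference of the 32 genes was -0.05 in KO and -0.0049 in Het, beside -0.03 and -0.01 over all genes tested. Between KO and Het it was -0.16, beside -0.02. The WT and KO arrays did not overlap in 25 collagen genes (61.8% of all genes), the WT and Het arrays in 20 (47.7% of all genes) and the Het and KO arrays in 26 (57.9% of all genes). The Het mean lay between those of WT and KO in 17 of the 32, and in 42.9% of all genes.

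**Figure D1:**
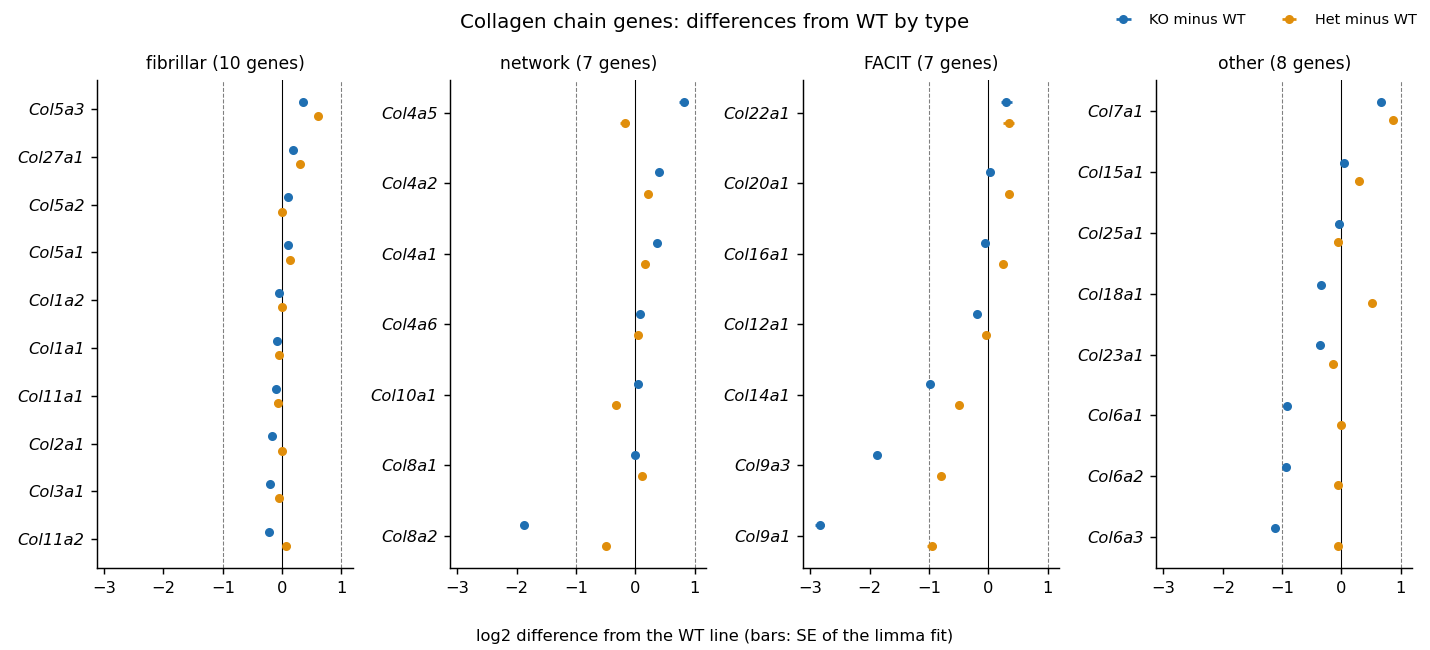
Log2 difference from the WT line of the 32 tested collagen genes, in 4 panels by type, with KO in blue and Het in orange; each point is the mean difference of 3 against 3 arrays, its bar the SE of the limma fit, and the dashed lines mark 2-fold. Col9a1, Col9a3, Col8a2 and Col6a3 lie left of the lower dashed line in KO, and all Het points lie between the lines.

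None of the 10 fibrillar genes was called in KO or in Het. At an unadjusted limma p below 0.05 there were 7 of 10 in KO, where 58% of all genes passed, and 3 in Het, where 44.3% did. Their log2 differences in KO ran from -0.22 for Col11a2, a minor cartilage chain, to 0.35 for Col5a3, with a median of -0.06. The highest mean of the type was that of Col1a2, which with Col1a1 makes type I collagen, the main protein of fibroblast matrix. Col1a2 read 15.11, 15.12 and 15.15 in the WT arrays, 15.14, 15.11 and 15.11 in Het and 15.11, 15.09 and 15.05 in KO. WT and Het overlapped, and the KO arrays lay just below both, with a KO difference of -0.05 that did not pass the adjusted p. This probe set had the highest mean of all probe sets, at the top of the deposited range, where array maxima were 15.05 to 15.15. A second Col1a2 probe set differed by -0.06 in KO and -0.05 in Het. The third, with the lowest mean, read 9.42, 9.30 and 9.35 in WT, 10.06, 10.11 and 10.06 in Het and 9.85, 9.85 and 9.86 in KO. There the differences from WT were 0.72 in Het and 0.50 in KO with no overlap, unlike the other probe sets of the gene. With the mean of the 3, Col1a2 was at 0.13 in KO and 0.22 in Het.

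Col1a1 differed by -0.08 in KO and -0.06 in Het, and its other probe set by 0.10 and 0.19. Col3a1, the type III chain of extensible tissues such as skin and vessels, read 14.66, 14.62 and 14.64 in WT, 14.62, 14.58 and 14.57 in Het and 14.44, 14.50 and 14.38 in KO. Its KO arrays were all below the others, at a log2 difference of -0.20 (-0.51 at its other probe set), short of 2-fold. Among type V chains, which set fibril diameter, Col5a1 differed by 0.10 and Col5a2 by 0.10 in KO. Col5a3 had the largest fibrillar difference in both lines by the probe set tested. It read 9.75, 9.60 and 9.63 in WT, 10.26, 10.32 and 10.21 in Het and 10.04, 9.99 and 9.99 in KO. The Het arrays were highest, at 0.60 ± 0.048 (SE, limma adjusted p = 8.1e-06), and the KO arrays lay between them and WT at 0.35 ± 0.048. Col2a1, the main fibrillar chain of cartilage, differed by -0.18 in KO.

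In the network class Col8a2 fell in KO, where 2.58% of all genes fell, and 6 of 7 genes were not called. Types IV and VIII belong here: type IV is the scaffold of basement membranes, and type VIII forms hexagonal lattices under some endothelia, with chains from Col8a1 and Col8a2. Col8a2 read 12.81, 12.74 and 12.76 in the WT arrays, 12.28, 12.25 and 12.28 in Het and 10.91, 10.90 and 10.87 in KO. The groups did not overlap, with Het between the other lines and nearer to WT. Col8a2 was 3.67-fold lower in KO than in WT (log2 difference -1.88 ± 0.037, SE, limma adjusted p = 3.56e-11) and was -0.50 from WT in Het. The drop from Het to KO was -1.38.

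Col8a1, which encodes the partner chain, read 13.38, 13.33 and 13.31 in WT, 13.43, 13.46 and 13.45 in Het and 13.37, 13.32 and 13.33 in KO. Its WT and KO arrays overlapped, at a log2 difference of 0.0019. Of its other probe sets 1 differed by 0.02 in KO and 1 by -0.37 in KO and -0.83 in Het. Within each array the Col8a2 value minus the Col8a1 value was -0.59 to -0.55 in WT, -1.21 to -1.15 in Het and -2.46 to -2.42 in KO. At these probe sets Col8a2 was thus shifted by -1.88 in KO and by -0.61 in Het relative to its partner. The Col8a1 probe set at -0.83 in Het was further below WT there than Col8a2 (-0.50). The direction of the Het shift therefore depends on the probe set. The stretches before their transcription starts are shown because these partner genes differed; they are RefSeq sequence of GRCm38.p6, 5′ to 3′ on the strand of the gene, and capitals mark the motif GGGCGG (GC box) on either strand. Col8a1 (chr16:57754738-57754987, minus strand) and Col8a2 (chr4:126286544-126286793, plus strand) each held 4 matches, which may share bases.
Col8a1: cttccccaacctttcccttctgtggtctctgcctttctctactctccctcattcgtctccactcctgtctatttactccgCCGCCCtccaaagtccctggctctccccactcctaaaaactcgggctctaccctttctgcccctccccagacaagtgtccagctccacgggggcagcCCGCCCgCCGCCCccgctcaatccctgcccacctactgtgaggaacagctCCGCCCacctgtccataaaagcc
Col8a2: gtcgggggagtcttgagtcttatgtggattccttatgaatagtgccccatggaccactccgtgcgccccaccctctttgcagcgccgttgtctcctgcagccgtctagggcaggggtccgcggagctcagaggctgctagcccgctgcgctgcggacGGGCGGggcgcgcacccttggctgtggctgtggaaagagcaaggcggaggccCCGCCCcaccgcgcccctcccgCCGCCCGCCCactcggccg
In 32.7% of the 32817 promoter windows of the table this motif occurs at least once. A match describes the letters only.

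The chains of the main type IV network, Col4a1 and Col4a2, differed from WT in the other direction and by less than 2-fold. Col4a1, with the highest mean of the class, read 13.75, 13.67 and 13.68 in WT, 13.87, 13.86 and 13.87 in Het and 14.07, 14.07 and 14.04 in KO. The arrays of the 3 lines were apart, with Het in the middle, at 0.16 in Het and 0.36 ± 0.037 (SE, limma adjusted p = 9.64e-06) in KO. At its other probe set these differences were 0.11 and 0.56, and the WT and Het arrays overlapped. Col4a2 differed by 0.21 and 0.40. Its arrays read 13.37, 13.32 and 13.34 in WT, 13.54, 13.56 and 13.56 in Het and 13.76, 13.72 and 13.76 in KO. These 2 genes lie next to each other with 0 protein-coding genes between them in RefSeq. The difference of their values moved by -0.04 in KO at the probe sets used.

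Col4a5, whose chain is part of the kidney and lung basement membrane network, read 10.41, 10.31 and 10.46 in WT, 10.35, 10.19 and 10.10 in Het and 11.29, 11.26 and 11.09 in KO. Only the KO arrays stood apart, at 0.82 ± 0.074 from WT (SE, limma adjusted p = 3.54e-06) and 1.00 from Het, which was just short of the 2-fold minimum. Against Het it was called with median centring (1.05), without Het replicate 1 (1.07) and without KO replicate 3 (1.06). Its other probe set differed by 0.53 in KO and -0.43 in Het. Col4a6, its neighbour in RefSeq with 0 protein-coding genes between, differed by 0.07 in KO (0.29 at its other probe set). Col10a1, the collagen of hypertrophic cartilage, differed by 0.04 in KO and -0.32 in Het. Col4a3 and Col4a4 were below the low-value minimum.

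In the FACIT class 2 of 7 tested genes, Col9a1 and Col9a3, fell in KO, where 2.58% of all genes fell. Col9a1 had the largest difference from WT among the tested collagen genes. Type IX is a heterotrimer of chains from Col9a1, Col9a2 and Col9a3. Col9a1 read 9.29, 9.36 and 9.27 in WT, 8.35, 8.36 and 8.35 in Het and 6.62, 6.24 and 6.52 in KO. The 3 lines were far apart compared with their spread, and Het lay between the others. Col9a1 was 7.18-fold lower in KO than in WT (log2 difference -2.84 ± 0.078, SE, limma adjusted p = 2.7e-10) and -0.95 from WT in Het. Its KO mean of 6.46 was close to the low-value minimum of 6.22. The size depends on the probe set: the second one read 8.31, 8.78 and 8.37 in WT, 7.95, 7.95 and 7.93 in Het and 7.76, 7.47 and 7.58 in KO, a difference of -0.88, and the mean of both gave -1.86.

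Col9a3 read 9.31, 9.32 and 9.23 in WT, 8.48, 8.48 and 8.49 in Het and 7.36, 7.38 and 7.49 in KO. The order of the lines was that of Col9a1, again with no overlap. Col9a3 was 3.66-fold lower in KO (log2 difference -1.87 ± 0.045, SE, limma adjusted p = 1.22e-10) and -0.80 from WT in Het. Its other 2 probe sets, below the low-value minimum, differed by -1.14 and -0.16 in KO. Col9a2, which encodes the remaining chain of the trimer, was below the minimum throughout: 5.50, 5.73 and 5.48 in WT, 5.48, 5.50 and 5.48 in Het and 5.47, 5.41 and 5.36 in KO. The Col9a1 value minus the Col9a3 value moved by -0.97 from WT to KO arrays, so the fall of these chains was unequal at the probe sets used.

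RefSeq gives Col9a1 an outer start and an internal one, which are shown because the gene had the largest difference of the family. The stretch before the outer start (chr1:24177360-24177588, plus strand) held none of the 4 motifs searched. These were the GC box, the CCAAT box, the TATA box with the letters TATAAA, and the core bound by SOX proteins with the letters AACAAT. That before the internal start (chr1:24194953-24195202, plus strand) held 1 CCAAT box, in capitals.
Col9a1, outer start: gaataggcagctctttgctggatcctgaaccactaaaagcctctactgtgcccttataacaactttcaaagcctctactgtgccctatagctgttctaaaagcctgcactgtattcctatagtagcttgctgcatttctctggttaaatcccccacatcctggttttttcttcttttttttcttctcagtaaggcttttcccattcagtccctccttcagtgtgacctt
Col9a1, internal start: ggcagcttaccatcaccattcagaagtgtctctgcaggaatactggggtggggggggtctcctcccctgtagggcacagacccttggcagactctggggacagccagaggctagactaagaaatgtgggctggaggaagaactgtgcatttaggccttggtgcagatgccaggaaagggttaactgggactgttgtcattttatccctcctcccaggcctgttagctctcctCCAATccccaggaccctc
On either strand the CCAAT box occurs in 33.8% of all promoter windows, the TATA box in 12.4% and the SOX core in 9.42%. Of the 42 collagen genes 33 had windows in the table, 36 in all, of which 19 held a GC box, 13 a CCAAT box, 5 a TATA box and 1 a SOX core. Some of these windows were cut back at the edge of the gene, to as few as 152 bases. The shares over all windows used 250 bases each, so the lengths compared are not equal.

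Some markers of cartilage cells moved beside type IX. Of 12 chondrocyte markers listed, 7 were past the low-value minimum, and of these 3 fell in KO against WT, where 2.58% of all genes fell. These were Comp, a cartilage matrix protein (-1.51), the matrilin gene Matn4 (-1.01) and Sox9, the regulator of chondrocyte fate (-1.01). Comp averaged 7.72 in WT, 6.68 in Het and 6.21 in KO. Its KO mean was just below the low-value minimum of 6.22, which limits what the size of its difference can show. The other tested markers were not called and did not all lie lower. Acan, the aggrecan gene, differed by -0.56 in KO and 0.06 in Het, Sox5 by -0.28 and -0.17, Matn3 by -0.01 and -0.25 and Sox6 by 0.27 and 0.29. In Het, Comp fell by 1.04, where 0.201% of all genes fell. The log2 of the summed marker level was 10.91 to 10.94 in WT arrays, 10.60 to 10.74 in Het and 10.41 to 10.42 in KO. The markers Matn1, Hapln1, Snorc, Epyc and Cytl1 were below the minimum. Their part in the result was not tested. In RNA of a whole culture, fewer cells of a type and less RNA per cell cannot be told apart.

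The remaining 5 tested FACIT genes were not called. Col14a1, the undulin gene of tendon and skin, came nearest. It read 12.02, 11.96 and 12.03 in WT, 11.55, 11.50 and 11.47 in Het and 11.04, 11.01 and 11.01 in KO. The lines were apart, with Het midway, at -0.98 ± 0.040 in KO (SE, limma adjusted p = 5.16e-09) and -0.50 in Het. Col14a1 was called with quantile normalization (-1.02) and without WT replicate 2 (-1.01). Its other probe set past the minimum gave -0.84 and -0.44. Col12a1, a FACIT of dense connective tissue with the highest mean of the class, read 13.35, 13.30 and 13.35 in WT, 13.37, 13.26 and 13.24 in Het and 13.15, 13.12 and 13.15 in KO. Its KO arrays were lowest, by -0.19, at this probe set. The other one past the minimum differed by -0.45 in KO and -0.30 in Het, and its Het and KO arrays overlapped. Col22a1 differed by 0.30 in KO and 0.35 in Het, Col20a1 by 0.02 and 0.35 and Col16a1 by -0.06 and 0.25.

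**Figure D2:**
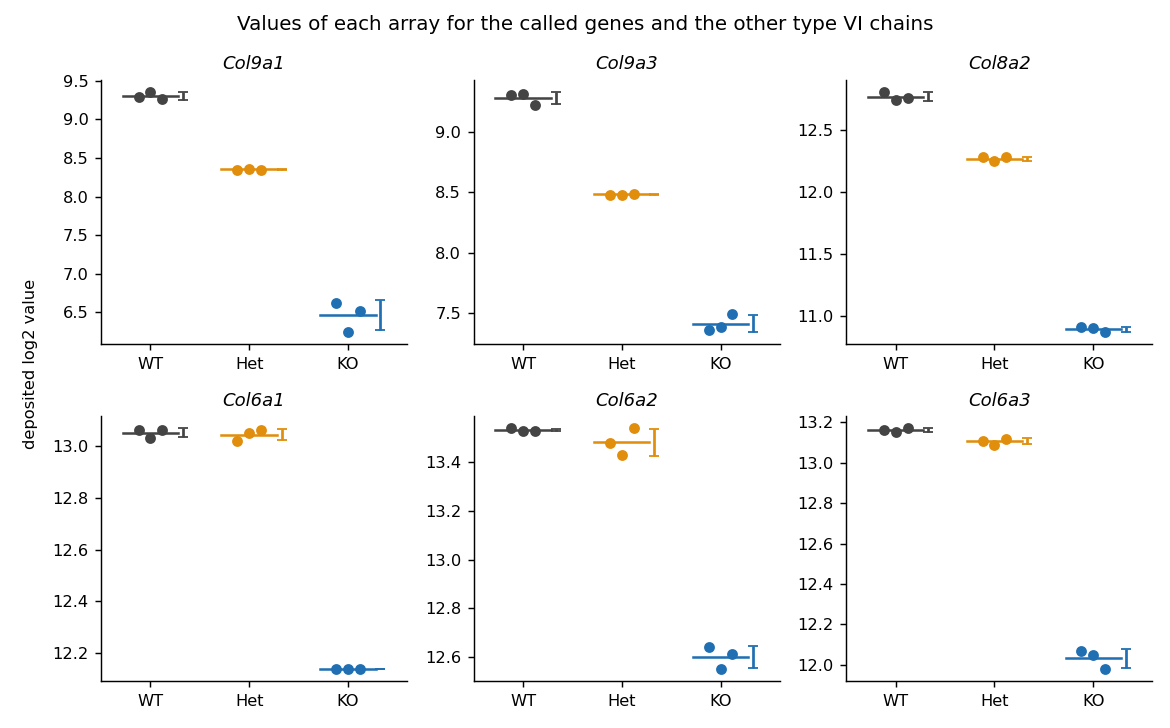
Deposited log2 value of each array (points), with the line's mean (horizontal line) and SD (bracket), for the 4 called collagen genes and the other 2 type VI chains; axes differ between panels and do not start at 0. In type VI the WT and Het arrays lie close to each other near 13 (without overlap in Col6a3) and the KO arrays about 1 unit lower. In Col9a1, Col9a3 and Col8a2 the Het arrays lie farther from both other lines.

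Type VI collagen showed another spacing of the lines: its 3 main chains were lower in KO than in both other lines, with Het close to WT. Col6a3 read 13.16, 13.15 and 13.17 in WT, 13.11, 13.09 and 13.12 in Het and 12.07, 12.05 and 11.98 in KO. It fell 2.18-fold against WT (log2 difference -1.13 ± 0.037, SE, limma adjusted p = 1.05e-09) and by 1.07 against Het. Het differed from WT by -0.05 (limma adjusted p = 0.284), although the Het arrays all lay below the WT arrays. The partner chains lay just under the 2-fold minimum and were not called. Col6a1 read 13.06, 13.03 and 13.06 in WT, 13.02, 13.05 and 13.06 in Het and 12.14 in each KO array, a difference of -0.91 ± 0.034 (1.88-fold, adjusted p = 2.94e-09) in KO and -0.0042 in Het. Col6a2 read 13.54, 13.53 and 13.53 in WT, 13.48, 13.43 and 13.54 in Het and 12.64, 12.55 and 12.61 in KO, which is -0.93 ± 0.041 (1.91-fold, adjusted p = 9.4e-09). For both, WT and Het overlapped and KO stood apart.

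The second Col6a2 probe set, of a design class that can also bind other transcripts, read 12.67, 12.55 and 12.53 in WT, 12.47, 12.67 and 12.74 in Het and 11.45, 11.43 and 11.43 in KO. Its difference was -1.14 in KO and 0.04 in Het, and the mean of both probe sets passed 2-fold (-1.04). With quantile normalization the first probe set alone also just passed it. The value of Col6a2 minus that of Col6a1 moved by -0.02 from WT to KO arrays, that of Col6a3 minus Col6a1 by -0.22 and that of Col6a3 minus Col6a2 by -0.19. Col6a1 and Col6a2 are adjacent in RefSeq with 0 protein-coding genes between them, while Col6a3 is on another chromosome. Their upstream stretches are shown because the 3 genes had similar differences: Col6a1 (chr10:76726045-76726294, minus strand), Col6a2 (chr10:76623631-76623880, minus strand, outer start) and Col6a3 (chr1:90844002-90844221, minus strand). Of the 4 motifs, Col6a2 held 1 GC box, in capitals, and the windows of Col6a1 and Col6a3 held none. A window before an internal start of Col6a2 held 3 GC boxes and is not shown.
Col6a1: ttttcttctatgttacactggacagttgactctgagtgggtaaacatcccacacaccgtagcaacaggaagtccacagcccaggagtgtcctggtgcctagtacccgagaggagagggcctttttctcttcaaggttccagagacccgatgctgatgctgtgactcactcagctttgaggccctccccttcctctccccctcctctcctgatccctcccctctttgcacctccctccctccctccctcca
Col6a2: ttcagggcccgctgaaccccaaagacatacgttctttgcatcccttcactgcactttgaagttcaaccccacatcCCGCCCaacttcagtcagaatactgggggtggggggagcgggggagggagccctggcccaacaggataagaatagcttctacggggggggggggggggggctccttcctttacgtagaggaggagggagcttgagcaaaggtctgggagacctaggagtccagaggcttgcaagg
Col6a3: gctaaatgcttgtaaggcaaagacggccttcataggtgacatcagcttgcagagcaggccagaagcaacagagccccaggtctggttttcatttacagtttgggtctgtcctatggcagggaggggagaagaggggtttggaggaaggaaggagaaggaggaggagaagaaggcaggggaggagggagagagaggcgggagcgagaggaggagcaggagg
No match says only that these letters are not in this window.

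**Figure D3:**
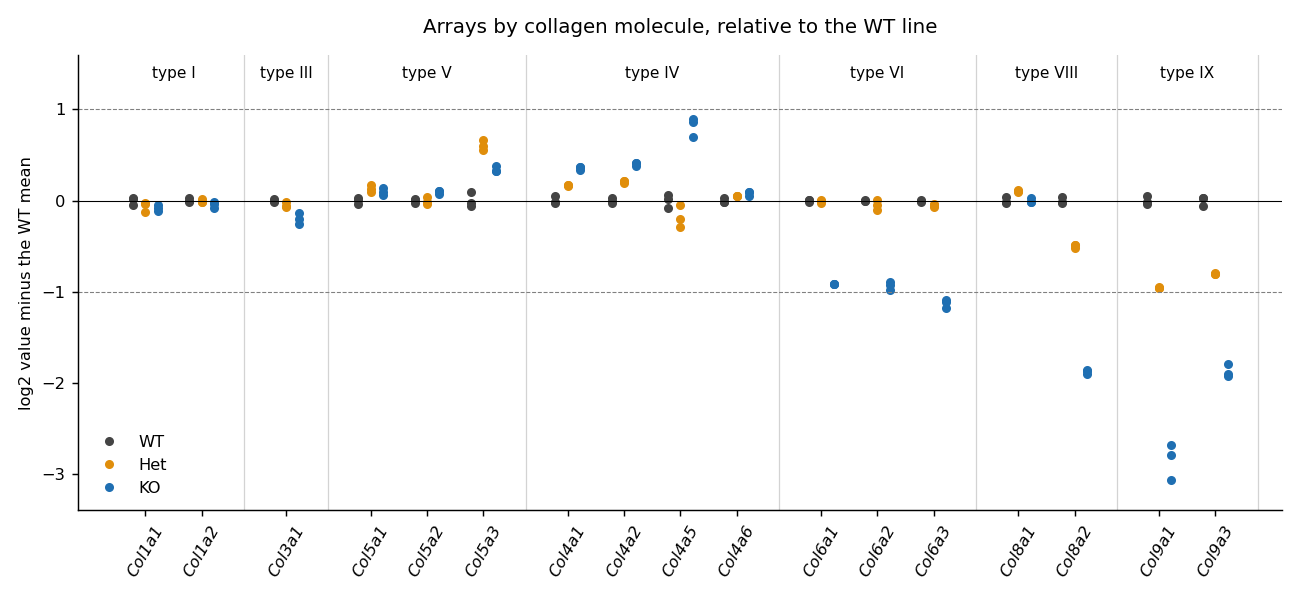
Log2 value of each array minus the WT mean of the same gene, for chains grouped by the collagen type they build (WT dark grey, Het orange, KO blue; dashed lines mark 2-fold). Type VI chains lie together in KO at -0.91 to -1.13 on average, whereas Col8a1 is at 0.0019 beside Col8a2 at -1.88.

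Among the other types Col7a1, the anchoring fibril collagen of skin, was higher in both mutant lines without reaching 2-fold. It read 10.25 in each WT array, 11.13, 11.07 and 11.15 in Het and 10.94, 10.89 and 10.94 in KO. The arrays were apart, with Het highest, at 0.87 ± 0.038 in Het (SE, limma adjusted p = 1.18e-07) and 0.67 ± 0.038 in KO (adjusted p = 6.78e-08). Col18a1, the precursor of endostatin, read 11.38, 11.36 and 11.41 in WT, 11.87, 11.89 and 11.94 in Het and 11.03, 10.99 and 11.09 in KO. It was above WT in Het (0.52) and below WT in KO (-0.35), with no overlap, and its other probe set gave 0.44 and -0.15. Col15a1 differed by 0.04 in KO and 0.29 in Het, Col23a1 by -0.37 and -0.14, and Col25a1 by -0.05 and -0.06. A second Col25a1 probe set with low values read 7.64, 7.24 and 7.49 in WT, 6.50, 6.27 and 6.57 in Het and 7.11, 6.89 and 6.94 in KO. It was the 1 collagen probe set called in Het (-1.01) when all 45037 were fitted.

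The 10 genes below the minimum had 17 probe sets, with line means from 3.82 to 6.58. Col26a1 and Col24a1 are named because of their low KO values, after these were seen. Col26a1 read 6.62, 6.52 and 6.59 in WT, 6.13, 6.16 and 6.09 in Het and 5.58, 5.35 and 5.35 in KO, a difference of -1.15 that was called when no filter was set, while its other probe set lay above 0 in that comparison. Col24a1, a minor fibrillar chain, read 5.61, 5.67 and 5.65 in WT, 5.19, 5.12 and 5.10 in Het and 4.55, 4.67 and 4.73 in KO (-0.99). Their WT, Het and KO arrays did not overlap, with means over all arrays below the low-value minimum. When all probe sets were fitted without a filter, 7 of the 82 collagen probe sets were called in KO against WT, 1 in Het against WT and 5 in KO against Het, beside 1.86%, 0.246% and 1.05% of all probe sets.

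**Figure D4:**
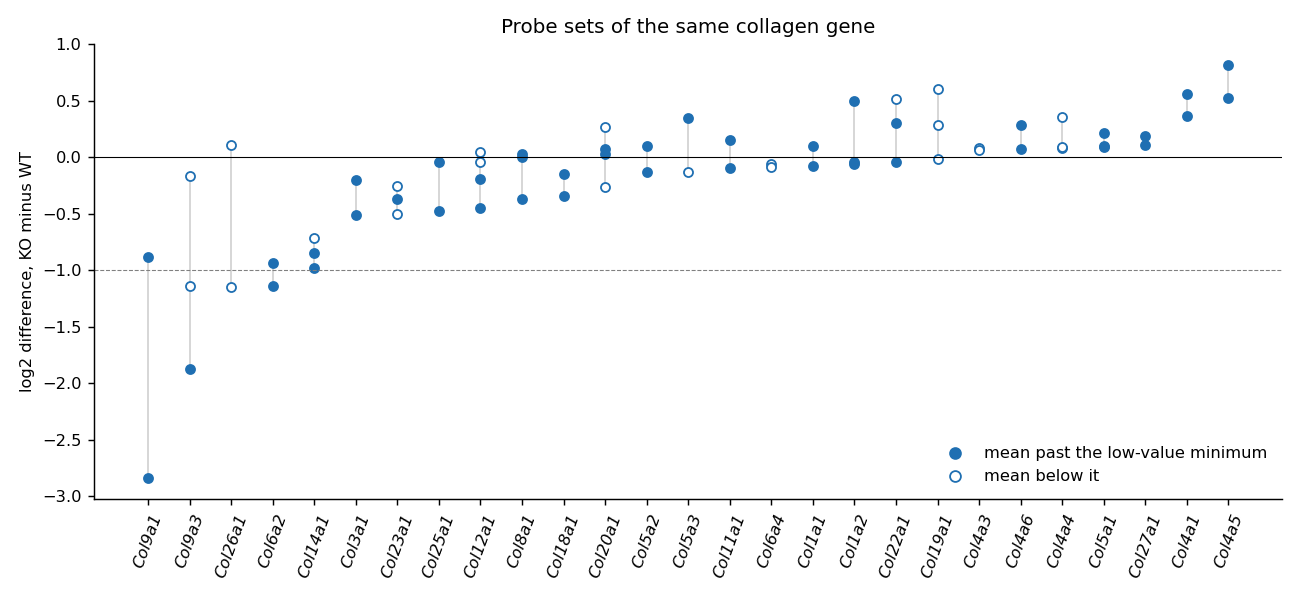
Log2 difference of KO from WT for each probe set of the 27 collagen genes that have several, joined by a line per gene (filled, mean past the low-value minimum; open, below it; dashed line, 2-fold lower). The probe sets of Col9a1 span -2.84 to -0.88 on the same side of 0, and those of Col8a1, Col1a1 and Col1a2 lie on both sides.

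Probe sets of a gene often differed in size and sometimes in sign. Of 19 tested genes with several probe sets past the minimum, 6 had both signs in KO against WT (Col11a1, Col1a1, Col1a2, Col22a1, Col5a2 and Col8a1). In Het against WT 4 had both signs (Col1a1, Col1a2, Col6a2 and Col8a1). None of the 4 called genes was among them, and of these only Col9a1 had several probe sets past the minimum.

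Genes that make, process, bind or degrade collagen were counted from fixed lists. Of 20 genes of chain synthesis and modification listed, 18 were tested, and 0 of these were called in KO (15 at an unadjusted limma p below 0.05 and 12 past the adjusted p, beside 58% and 53.1% of all genes). The largest differences were those of P3h2, a prolyl 3-hydroxylase (0.87), and Plod1, a lysyl hydroxylase (-0.80). The median of the list was -0.09, beside -0.03 for all genes. Of 9 tested genes of propeptide processing and cross-linking (13 listed), 2 rose and 1 fell in KO, where 0.988% and 2.58% of all genes did. The median of this list was 0.25. Tll1, a tolloid-like procollagen C-proteinase, rose by 1.64 and Pcolce2, an enhancer of that cleavage, by 1.15. Adamts3, an N-propeptidase, fell by 1.13, and it was -0.82 from WT in Het.

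Of 8 tested collagen receptors (10 listed) 0 were called in KO (5 at an unadjusted limma p below 0.05, beside 58% of all genes). The largest differences were -0.55 for Lair1, an inhibitory receptor of leukocytes, and 0.49 for Ddr1, a receptor tyrosine kinase. Lair1 averaged 6.44 in WT and 5.88 in KO, so its KO mean lay below the low-value minimum. Of 6 tested collagen-degrading enzymes (7 listed) 1 rose, the gelatinase gene Mmp9 (1.03), where 0.988% of all genes rose. The median of the 6 was -0.03. The collagenase gene Mmp13, below the low-value minimum and named after its values were seen, averaged 6.27 in WT and 4.72 in KO (-1.55 ± 0.11, SE) and differed by -0.67 in Het. In Het against WT 0 genes of these 4 lists were called, with 6, 6, 3 and 5 at an unadjusted limma p below 0.05 in the order given (44.3% of all genes). Against Het, Tll1 (1.45) and Pcolce2 (1.21) rose in KO, where 0.625% of all genes rose.

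The lines also differed in markers of other cells. All 10 fibroblast markers were past the minimum, among them Vim, Fn1 and Thy1. In KO 1 of them fell, Pdgfra, a growth factor receptor of mesenchymal cells (-2.55), where 2.58% of all genes fell. The adjusted p alone was passed by 8 of the 10, 3 higher and 5 lower, where 53.1% of all genes passed it. Dcn (-0.93) and Prrx1 (-0.40) were among the lower ones. The summed level of the 10 markers, in which the highest members weigh most, was 16.37 to 16.38 in WT, 16.33 to 16.35 in Het and 16.28 to 16.32 in KO on the log2 scale. Their mean log2 level was 12.22 to 12.23 in WT, 12.14 to 12.17 in Het and 11.85 to 11.88 in KO. Of 10 macrophage markers 10 fell in KO, where 2.58% of all genes fell. Their summed levels were 15.44 to 15.48 in WT, 15.11 to 15.19 in Het and 13.56 to 13.63 in KO. Of 7 tested muscle markers 6 rose in KO, where 0.988% of all genes rose. Their sums were 10.85 to 10.91 in WT, 11.44 to 11.58 in Het and 12.19 to 12.22 in KO. Among 5 tested epithelial markers the keratins Krt18 (1.68) and Krt19 (1.26) rose, beside the same 0.988% of all genes. Of 2 tested osteoblast, 2 endothelial and 4 Schwann cell markers 0 were called, with 1, 1 and 3 at an unadjusted limma p below 0.05 (58% of all genes). Markers whose mean over all arrays was below the minimum also differed, as was seen afterwards. The osteoblast marker Phex averaged 7.20 in WT, 6.65 in Het and 4.62 in KO. Dmp1 was lower in KO too (5.11, 4.71 and 4.23), and Ibsp differed by -0.05. The tested osteoblast markers went the other way in KO, Alpl by 0.30 and Sp7 by 0.09. The endothelial Emcn (5.67, 5.44 and 6.66) was higher in KO. The other endothelial markers below the minimum were lower there: Vwf (-0.34), Pecam1 (-0.27), Tie1 (-0.25), Tek (-0.08) and Cdh5 (-0.07). The summed osteoblast level, which includes the markers below the minimum, was 8.45 to 8.55 in WT, 8.31 to 8.34 in Het and 7.82 to 8.01 in KO. The part of these other cells in the collagen differences was not tested.

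Oga itself followed the labels: its most abundant probe set read 11.92 on average in WT, 11.16 in Het and 6.06 in KO. All 6 Oga probe sets were lower in KO than in WT, by -5.86 to -1.42. Array medians were 6.87 to 6.92 in WT and KO and 6.93 to 6.95 in Het, and array values correlated at r = 0.997 to 0.999 within lines and 0.989 to 0.996 between lines over all probe sets. The difference between the end probe sets of the actin control was 0.06 to 0.08 in WT, 0.09 to 0.12 in Het and 0.05 to 0.09 in KO. That of the GAPDH control was -0.09 to -0.07 in WT, -0.0077 to 0.0041 in Het and -0.10 to -0.04 in KO. The Het arrays stood above the others in all 3 measures, and the part of this in the results was not tested.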

How the data were processed

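RNA of 3 lines, run on 9 Affymetrix arrays, was labelled with biotin, per the labels' protocols. The authors deposited log2 values of 45101 probe sets; base 2 was inferred from their range. Per the submitters' processing notes the software was GCOS and Partek. How background and normalization were handled is not stated there, and the values were used as deposited. Control probe sets (64) were left out, as were probe sets in the lowest 40% by mean (below 6.22), and each gene was represented by its highest-mean probe set. A gene that passed through its higher line alone can have a lower line near that minimum. All 12962 genes were fitted with limma 3.58.1 (lmFit and eBayes, R 4.3.3) in 1 model of 3 lines, with Benjamini-Hochberg adjustment over all genes. A second fit took all 45037 probe sets. Symbols came from the platform annotation; all 82 collagen probe sets matched RefSeq (GRCm38.p6) by Entrez identifier. That build is named for the promoter stretches only, because no source used here names one for the annotation.

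The members and all lists were chosen with earlier results of these data known. Every collagen gene could be named; array values are given for called genes and the highest mean of each class, and for further genes chosen after their values were seen. In other lists up to 4 called genes, or the 2 largest differences, are named, with some further genes named after their values were seen. A planned ranking of genes by likeness to Col9a1 was left out because arrays of 1 line are not independent. Same-numbered arrays did not deviate together (r of deviations -0.18 to 0.21, 2 of 9 pairs over 0.1), so numbers were not taken as pairs. On simulated data for KO against WT with 12962 genes, 56% of 50 genes given a log2 change of 1 were called and 100% of those given 1.5. A log2 change of 1 equals the 2-fold minimum, so array noise decided which of those genes were called. Of 12762 unchanged genes 0 were called and 10 passed the adjusted p. These were drawn with the same mean in all lines and the spread between arrays alone. Their 0 calls therefore cannot tell how often lines differ for reasons other than genotype. Arrays have no read depth. The number of arrays limits how precisely each line is measured, and 1 line per genotype limits what can be said of genotype. Plots used matplotlib 3.10.9 (Python 3.11.15).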

Additional observations from a re-analysis of the deposited data

How the results depend on the processing

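Each of the 4 called collagen genes stayed called in KO against WT and in KO against Het under all alternatives run, among them quantile normalization, median centring, other filters, other choices of probe set, a trended and robust variance and fits of only the compared lines. Some of these could not remove a call. Lower fold minimums can only add calls, and of the 4 genes only Col9a1 had several probe sets past the minimum. With each probe set tested, a gene counted where any of its probe sets was called. The second Col9a1 probe set (-0.88 in KO against WT) did not reach 2-fold. The count of 4 in KO against WT became 9 with a 1.5-fold minimum and 21 with no fold minimum. The count of 0 in Het against WT became 4 with 1.5-fold (Col5a3, Col7a1, Col9a1 and Col9a3), 17 with no fold minimum and 1 when each probe set was tested (Col25a1). The count of 4 in KO against Het became 8 with 1.5-fold and 24 with no fold minimum. Over all genes these minimums gave 1241 and 6881 calls in KO against WT, 236 and 4458 in Het against WT and 895 and 6782 in KO against Het, and testing each probe set gave 69 in Het against WT. Of the alternatives run, the fold minimums moved these counts the most. In KO against WT the count was also 6 with quantile normalization and 5 with no filter, with the lowest 20% left out, with the mean of probe sets and with each probe set tested. In KO against Het it was 5 with median centring and with these choices of probe set. Leaving out 1 array gave 4 to 5, 0 to 0 and 4 to 5 collagen genes in the 3 comparisons. With the replicate number as a block the counts were 4, 0 and 4. Of 2079 values for single genes over 22 alternatives, 1960 kept their direction and side of the threshold, which leaves room for changes in size. Another 75 were called where they had not been, most of them because the fold minimum was lowered and not because the value moved. The other 44, none of them a called value, turned sign or came to 0. With the mean of probe sets Col1a2 came to 0.13 in KO against WT and Col8a1 to -0.25 in Het against WT. The scalings moved the median of all genes by less than 0.1. Col9a1 (-2.84 in KO) was the called gene most open to the choice of probe set, and its KO values near the low-value minimum limit what its fold can show.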
